A study of Mus musculus with 6 samples.

Results

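Transsulfuration and glutathione genes were followed after siRNA against the histone chaperone Spt6 in CH12F3-2A, a line from a mouse B cell lymphoma that can switch its antibody class to IgA. The genes were Cth, Cbs, Chac1, Gclc, Gclm, Gss, Gsr, Gpx1, Gpx4 and Txnrd1, which are 10 genes, 9 of them among the 16390 gene symbols on the array. Members were matched by gene symbol or synonym, with the brightest probe standing for a gene. Of the 10, 9 had a probe, 1 probe each, and 8 had enough values to be compared. Gpx4 was not analysed here, and Gpx1 was measured on too few siControl arrays. The set was chosen by function with the log2 differences between siSpt6 and siControl in view. The members' differences are therefore given as a description without p-values, and nothing is read from their calls.

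Both groups were CIT-stimulated, with 3 arrays from cells that received a control siRNA (siControl) and 3 from cells that received an siRNA to Spt6 (siSpt6). The siRNA entered by Amaxa electroporation, CIT (CD40 ligand, interleukin 4 and TGF-beta) followed 24 h later, and RNA was taken after another 24 h. The study concerned the part of Spt6 in choosing the sites at which the enzyme AID acts during class switching. The arrays show which transcripts differ when the cells receive the Spt6 siRNA. Each array carried 1 Cy5-labelled RNA and gave an intensity in arbitrary units. Separate cultures are not mentioned in the labels, so the p-values reflect the spread of these samples alone, and that spread may be technical. All 6 samples came from cells grown with serum, 2 mM glutamine and 2-mercaptoethanol, a thiol that helps B cell lines take up cysteine equivalents. The labels write its concentration as 50 µM for siControl and 50 mM for siSpt6. Whether the media differed or only the labels do was not tested, and a difference in media cannot be told apart from the siRNA.

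Transsulfuration carries the sulfur of methionine to cysteine. Cystathionine beta-synthase (Cbs) joins homocysteine to serine, and cystathionine gamma-lyase (Cth) splits the product to release cysteine. Glutathione is then built by glutamate-cysteine ligase, made of the catalytic subunit Gclc and the modifier subunit Gclm, and by glutathione synthetase (Gss). Glutathione reductase (Gsr) and thioredoxin reductase (Txnrd1) restore the reduced thiols with NADPH, the peroxidases Gpx1 and Gpx4 spend glutathione on peroxides, and Chac1 breaks glutathione down inside the cell. Cth and Chac1 are known targets of the stress factor ATF4, and Gclc, Gclm, Gsr and Txnrd1 are known targets of NRF2, the product of Nfe2l2.

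The library-wide facts that bear on these genes are few. Between 21526 and 22372 probes had a value on an array, and 3 arrays a group limit the precision. The only Supt6 probe read 32.1 to 33.1 in siControl and 21.8 to 28.1 in siSpt6, a log2 difference of -0.38 (SE 0.13) that did not pass the threshold (limma adjusted p = 0.0973), although it did after cyclic loess normalization (limma adjusted p = 0.0491). Of 6 B cell markers, 5 had a probe (Cd79a, Cd79b, Pax5, Cd40 and Ighm), and all 5 had means above the array median. Their summed intensity was 7010 to 8681 in siControl and 9681 to 11450 in siSpt6. Most of this sum was Cd79b, with means of 5787 and 8455, whereas Cd40 read 996 and 860 and Pax5 39.4 and 38.4. The part of these markers in any result was not tested. The summed intensity of 4 T cell markers was 38.4 to 57.3 in siControl and 41.1 to 48.2 in siSpt6, and that of 3 macrophage markers was 63.3 to 81.5 and 76.1 to 85.3. Among these macrophage markers Csf1r carried most of the signal, with means of 60.5 in siControl and 65.3 in siSpt6. These lie above the array median and above the means of the B cell markers Pax5 and Ighm. The part of Csf1r in any result was not tested. The 2 plasma cell markers summed to 9.51 to 10.1 in siControl and 8.78 to 13.9 in siSpt6. Of all 15224 genes tested, 17.0% passed a limma adjusted p of 0.05, and of all 21584 probes tested 16.3% did. Bright genes read slightly lower in siSpt6. The brightest 3045 of these genes, which held Cth, Chac1, Gclc, Gclm and Txnrd1, had a median log2 difference of -0.17 as deposited, 0.02 after quantile normalization and 0.01 after cyclic loess.

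The members divided into 3 patterns. Cth and Chac1 were several-fold lower in siSpt6, Gclc was higher, and Cbs, Gclm, Gss, Gsr and Txnrd1 differed by 1.27-fold or less as deposited. By the fit over all probes 1 member was called higher and 2 lower of 8 tested, beside 7.40% of all genes called higher and 9.65% called lower. The groups did not overlap for 4 of the 8, Cth, Chac1, Gclc and Gsr, beside 38.6% of genes with a value on all 6 arrays. Because the members were proposed with these values known, nothing is read from either count. The members' median log2 difference was -0.20 as deposited, -0.11 after quantile normalization and -0.13 after cyclic loess, and that of all genes tested was -0.0019, 0.029 and -0.0042.

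**Figure D1:**
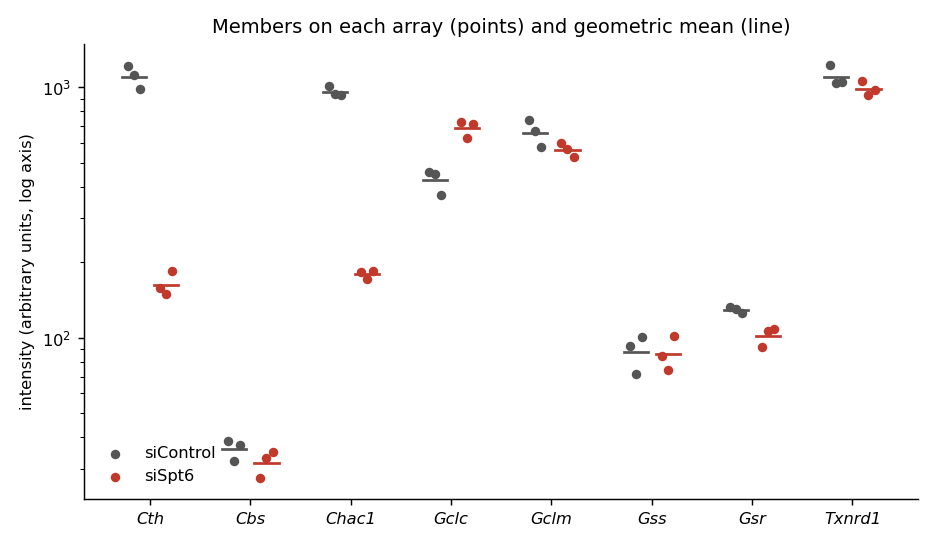
Intensity (arbitrary units, log axis) of the 8 measured members on each of the 3 siControl arrays (grey) and 3 siSpt6 arrays (red), with the geometric mean of each group as a line. Cth runs from 983 to 1218 in siControl and from 149 to 184 in siSpt6, Chac1 shows a similar gap, Gclc is higher in siSpt6 and the other members lie close together or overlap.

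Of the transsulfuration enzymes, Cth read 1218, 1116 and 983 in siControl and 158, 149 and 184 in siSpt6. All siControl values were thus several times every siSpt6 value. The group means were 1106 ± 118 and 164 ± 18.3 (intensity ± SD, n = 3 each), and the log2 difference was -2.76 (SE 0.14), a 6.76-fold lower level. No other of the 15224 genes tested had a more negative difference in the deposited values. Quantile normalization gave -2.60 and cyclic loess -2.62, and leaving out 1 array at a time gave -2.84 to -2.68.

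Cbs, which acts just before Cth, did not show this pattern. It read 38.7, 32.1 and 37.2 in siControl and 27.5, 33.2 and 34.9 in siSpt6, so the groups overlapped. Its log2 difference was -0.18 (SE 0.14) as deposited and after quantile normalization, and -0.21 after cyclic loess. Set against Cbs on the same array and against the siControl mean, the log2 level of Cth lay between -0.22 and 0.18 on the siControl arrays and between -2.78 and -2.42 on the siSpt6 arrays. The distance between the changes of these consecutive enzymes was -2.58 as deposited, -2.42 after quantile normalization and -2.41 after cyclic loess.

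The steps that feed transsulfuration or use its product were read from 18 further genes of the methionine cycle and sulfur oxidation, of which 14 were tested. Of these, 4 fell and 1 rose (limma, adjusted p under 0.05), and the list's median log2 difference was -0.35. Mtr, methionine synthase, fell from 147 ± 19.6 to 84.1 ± 7.84 (intensity ± SD, n = 3 each; limma adjusted p = 0.0124). Ahcy, which releases homocysteine, fell from 1725 ± 160 to 1038 ± 113 (limma adjusted p = 0.0148), a log2 difference of -0.73 that quantile normalization took to -0.47, which ended the call (limma adjusted p = 0.0732), as did leaving out siControl replicate 1 (limma adjusted p = 0.0517). The rise was Csad, an enzyme of taurine synthesis from cysteine, which read 67.6, 57.1 and 69.5 in siControl and 138, 132 and 138 in siSpt6 (2.11-fold higher, limma adjusted p = 0.00282). Ethe1, a mitochondrial persulfide dioxygenase, fell by 0.68 on the log2 scale, a call that ended when any array but siSpt6 replicate 3 was left out (highest limma adjusted p = 0.0848). The other fall was Mat2a, the methionine adenosyltransferase of non-liver cells, named after its value was seen (log2 difference -0.78). Its call ended when any array but siControl replicate 3 was left out (highest limma adjusted p = 0.0940), and under quantile and cyclic loess normalization (log2 difference -0.51 after the former, limma adjusted p = 0.113 and 0.0928).

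Chac1, the cyclotransferase that splits glutathione into 5-oxoproline and a dipeptide, had the other large difference. It read 1007, 942 and 933 in siControl and 184, 172 and 184 in siSpt6. The values within each group lay close together, with SDs of 0.06 and 0.05 on the log2 scale, and the groups lay far apart. The means were 961 ± 40.6 and 180 ± 6.82 (intensity ± SD, n = 3 each), and the log2 difference was -2.42 (SE 0.11), a 5.34-fold lower level. In the deposited values 3 genes had a more negative difference. The difference was -2.28 after both quantile and cyclic loess normalization, and -2.44 to -2.38 without 1 array at a time.

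The promoter of Chac1 is shown because Chac1 is a known ATF4 target. Both Chac1 and Atf4 were lower in siSpt6. Among the siControl arrays Atf4 was lowest on replicate 1, and Chac1 was highest there, within a narrow range of 933 to 1007. On that array 7 of the 8 members were highest among the siControl arrays, as were 40.5% of all genes with 6 values. A link between the 2 genes was not tested. The bases are the 250 before the RefSeq start (GRCm38.p6, chr2:119350992-119351241, plus strand, 5′ to 3′). Capitals mark a match to TGATGNAA, the core of the element bound by ATF4 with C/EBP factors, searched on both strands and here found as its reverse complement TTNCATCA, 193 bases before the start.
Chac1: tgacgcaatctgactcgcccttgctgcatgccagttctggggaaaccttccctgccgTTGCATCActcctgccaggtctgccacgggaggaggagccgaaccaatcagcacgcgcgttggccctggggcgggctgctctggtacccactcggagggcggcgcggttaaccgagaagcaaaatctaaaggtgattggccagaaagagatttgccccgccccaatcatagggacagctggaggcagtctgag
Of the 7 members with a promoter window in the RefSeq table, Chac1 alone held this core in its 300 bases (250 before and 50 after the start). The core was in 3.97% of all 32851 promoter windows of that length and, counted by gene, in 4.51% of 27025 genes. A match describes the letters and is no evidence of binding. Windows were found for Cbs, Chac1, Gclm, Gss, Gpx1, Gpx4 and Txnrd1, and Cth, Gclc and Gsr were not matched.

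Atf4 itself read 2719, 4008 and 3808 in siControl and 1092, 1114 and 1485 in siSpt6. The groups did not overlap, and the fall of 1.51 on the log2 scale passed the threshold (limma adjusted p = 0.00456). Beside Chac1, 15 other genes of cystine uptake and glutathione breakdown were listed, of which 14 were tested. Among them 4 fell and 2 rose (limma, adjusted p under 0.05), with a median log2 difference of -0.29. Slc3a2, the heavy chain that pairs with the cystine transporter and with other amino acid transporters, read 1249, 1546 and 1416 in siControl and 767, 752 and 876 in siSpt6 (1.76-fold lower, limma adjusted p = 0.00908). Its partner Slc7a11, the cystine transporter proper, was dim in both groups, at 6.97 ± 1.05 and 6.94 ± 2.07 (intensity ± SD, n = 3 each). The log2 difference of Slc7a11 was -0.04 (SE 0.23, limma adjusted p = 0.943), and its sign turned when some arrays were left out.

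The enzyme downstream of Chac1 moved the other way. Oplah, which opens 5-oxoproline to glutamate, rose 1.77-fold from 53.0 ± 7.02 to 93.8 ± 8.07 (limma adjusted p = 0.0111). Lap3, a leucine aminopeptidase, fell from 545 ± 92.7 to 291 ± 27.8 (limma adjusted p = 0.0125). Ggt7, of the gamma-glutamyltransferase family, fell by 0.66 on the log2 scale, a call that ended when any array but siSpt6 replicate 1 was left out (highest limma adjusted p = 0.0732). The probe of Ggt7 was dim, with means of 14.6 in siControl and 9.30 in siSpt6, and a pseudocount took its log2 difference to -0.54. Abcc1, an exporter of glutathione conjugates named after its value was seen, fell by 0.62, a call that ended when any array but siSpt6 replicate 3 was left out (highest limma adjusted p = 0.0720). Dpep2, a membrane dipeptidase, rose by 0.66 on the log2 scale. The call of Dpep2 ended under cyclic loess (limma adjusted p = 0.0788) and when any array but siControl replicate 3 and siSpt6 replicate 3 was left out (highest limma adjusted p = 0.0759).

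Of the genes that build glutathione, Gclc was the member that read higher in siSpt6. It read 459, 450 and 371 in siControl and 726, 628 and 714 in siSpt6, and every siSpt6 value lay above every siControl value. The means were 427 ± 48.7 and 689 ± 53.5 (intensity ± SD, n = 3 each), and the log2 difference was 0.69 (SE 0.14), a 1.62-fold higher level. The difference was 0.87 after quantile normalization and 0.85 after cyclic loess, and 0.60 to 0.76 without 1 array at a time. The call of Gclc ended without siSpt6 replicate 1 or without siSpt6 replicate 3, which left Cth and Chac1, 2 called members in place of 3. The members were chosen with these values known, so nothing is read from which of them kept a call. In the deposited values 1000 of the 15224 genes had a more positive difference.

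Gclm, the subunit that raises the ligase's affinity for its substrate, did not follow Gclc. It read 737, 671 and 575 in siControl and 599, 564 and 527 in siSpt6, and the groups overlapped. Its log2 difference was -0.22 (SE 0.14) as deposited, -0.04 after quantile normalization and -0.06 after cyclic loess. Within each array the log2 level of Gclc relative to Gclm, set to the siControl mean, was -0.053, 0.055 and -0.0028 in siControl and 0.91, 0.78 and 1.07 in siSpt6. This difference between the subunits' changes was 0.92 as deposited and 0.91 after either normalization. Both genes are among the brightest, and either normalization moved them by similar amounts, so this agreement is no support of its own.

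Gss, which adds glycine in the last step, read 92.9, 71.6 and 101 in siControl and 84.6, 74.3 and 102 in siSpt6. The groups overlapped almost fully, and the SDs of Gss on the log2 scale, 0.26 and 0.23, were the widest among the 8 members. Its log2 difference was -0.02 (SE 0.18) as deposited, 0.03 after quantile normalization and -0.01 after cyclic loess, so its sign depended on the scaling.

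**Figure D2:**
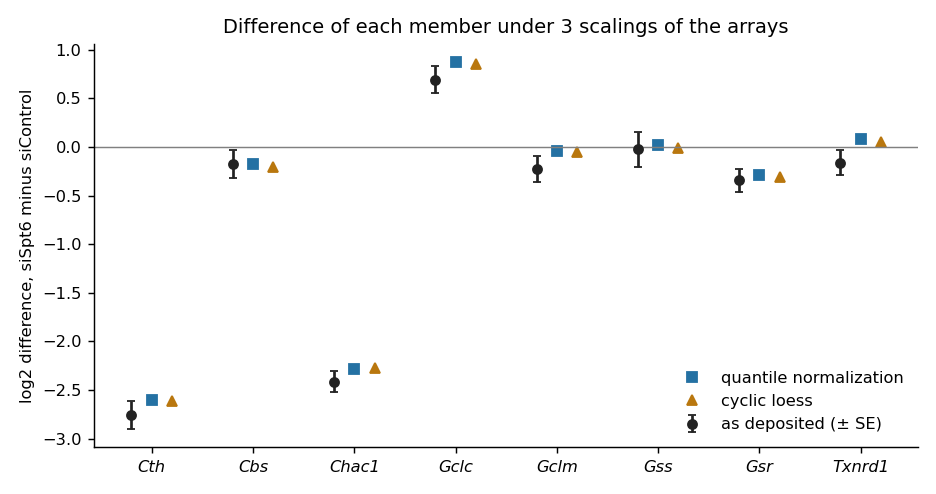
Log2 difference (siSpt6 minus siControl) of the 8 measured members as deposited (circles, ± SE), after quantile normalization (squares) and after cyclic loess (triangles). Cth, Chac1 and Gclc keep their distance from 0 under all 3 scalings, Gclm moves from -0.22 to -0.04 and -0.06, and Txnrd1 and Gss change sign.

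Of the genes that restore reduced thiols, Gsr read 133, 130 and 125 in siControl and 91.5, 106 and 109 in siSpt6. The groups did not overlap, siSpt6 being the lower, but the distance was small. The means were 129 ± 3.94 and 102 ± 9.26 (intensity ± SD, n = 3 each), and the log2 difference was -0.34 (SE 0.12), a 1.27-fold lower level. After quantile normalization it was -0.29, and after cyclic loess -0.31.

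Txnrd1, the cytosolic reductase of thioredoxin and a selenoprotein, read 1230, 1036 and 1045 in siControl and 1055, 927 and 975 in siSpt6, and the groups overlapped. Its log2 difference was -0.16 (SE 0.13) as deposited but 0.08 after quantile normalization and 0.05 after cyclic loess, so the direction turned with the scaling. The peroxidase gene Gpx1 had a value on 1 siControl array (2.06) and on all 3 siSpt6 arrays (2.93, 2.69 and 11.4). These lie near the 10th percentile of all values in the table, 2.66, except for siSpt6 replicate 3, and no difference was computed.

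Within the groups the members' highest and lowest arrays were set beside those of the 14405 genes with a value on all 6 arrays. Of the 8 members, 7 were highest in siControl replicate 1 among the siControl arrays, and Gss was highest in siControl replicate 3. Of all those genes 40.5% were highest in siControl replicate 1. Among the siSpt6 arrays, 5 of 8 were lowest in siSpt6 replicate 2 and 5 were highest in siSpt6 replicate 3, beside 47.3% and 45.5% of all those genes.

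Short stretches are shown for Gclm and Txnrd1, because each holds the core of the antioxidant response element bound by NRF2. Neither followed Gclc, but Gclc had no promoter window, so whether it holds the core was not seen. The core searched was TGACNNNGC on both strands, found here as its reverse complement GCNNNGTCA and printed in capitals. Both stretches are on the plus strand of GRCm38.p6, that of Gclm at chr3:122245413-122245442 with the match 134 bases before the start, and that of Txnrd1 at chr10:82859104-82859133 with the match 92 bases before the start in 1 of its 3 windows.
Gclm: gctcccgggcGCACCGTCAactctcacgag
Txnrd1: ctggatttttGCTTTGTCAttctgacacgg
These were the 2 members of 7 with the core, which was in 12.4% of all 32851 promoter windows. Counted by gene, as the members are, it was in 14.0% of 27025 genes. The 2 cores did not occur together in any member's window. Outside the members, Nfe2l2 held the antioxidant response element core 240 bases before its start, and Atf4 and Slc3a2 did not hold it.

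The genes of the NRF2 pathway and of NADPH supply, the reducing power that Gsr and Txnrd1 use, numbered 20, of which 19 were tested. Of these 2 rose and 5 fell (limma, adjusted p under 0.05), and the median log2 difference was 0.06 as deposited and 0.09 after quantile normalization. Nfe2l2, which encodes NRF2, read 321, 331 and 308 in siControl and 431, 503 and 524 in siSpt6 (1.51-fold higher, limma adjusted p = 0.0200). Its call ended when any array but siSpt6 replicate 1 was left out (highest limma adjusted p = 0.0664). Bach1, a repressor at the same elements, rose by 0.64 on the log2 scale, a call that ended when any array but siSpt6 replicate 2 was left out (highest limma adjusted p = 0.107). Keap1, which holds NRF2 in check, had a log2 difference of 0.08 (SE 0.14, limma adjusted p = 0.768), and its sign turned without siSpt6 replicate 3.

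The NADPH-linked falls included Tkt, transketolase of the pentose phosphate pathway, from 6080 ± 139 to 3262 ± 198 (intensity ± SD, n = 3 each; limma adjusted p = 0.00357). The log2 difference of Tkt was -0.90 as deposited, -0.57 after quantile normalization and -0.59 after cyclic loess. Pgd, which makes NADPH in that pathway, fell from 848 ± 48.1 to 541 ± 51.4 (limma adjusted p = 0.0153). Me1, malic enzyme, fell by 0.55 on the log2 scale, a call that ended when any array but siControl replicate 1 and siSpt6 replicate 2 was left out (highest limma adjusted p = 0.0594). Idh2 and Blvrb, named after their values were seen, fell by 0.44 and 0.43. Both calls ended whichever of the 6 arrays was left out (highest limma adjusted p 0.142 and 0.130), and also under both normalizations (limma adjusted p from 0.0699 to 0.147).

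Of 25 other peroxidases, thioredoxins, glutaredoxins and superoxide-handling enzymes, 23 were tested, 5 fell and 1 rose (limma, adjusted p under 0.05), with a median log2 difference of -0.16 as deposited, -0.044 after quantile normalization and -0.078 after cyclic loess. Glrx, cytosolic glutaredoxin, rose 1.60-fold from 294 ± 16.6 to 471 ± 14.8 (intensity ± SD, n = 3 each; limma adjusted p = 0.00868), while Glrx3, a glutaredoxin of iron-sulfur handling, fell from 2467 ± 117 to 1527 ± 33.1 (limma adjusted p = 0.00766). The log2 difference of Glrx3 was -0.69 as deposited, -0.41 after quantile normalization and -0.44 after cyclic loess. The peroxiredoxins Prdx1 and Prdx6 fell by 0.55 each on the log2 scale, and Prdx2, named after its value was seen, fell by 0.53. The calls of Prdx1, Prdx6 and Prdx2 ended under quantile normalization (log2 differences of -0.19, -0.24 and -0.24, limma adjusted p = 0.315, 0.192 and 0.339) and under cyclic loess (-0.20, -0.29 and -0.28, limma adjusted p = 0.288, 0.109 and 0.277). That of Prdx1 also ended when any array but siControl replicate 2 and siSpt6 replicate 3 was left out (highest limma adjusted p = 0.0629), that of Prdx6 for any array but siSpt6 replicate 3 (0.0655) and that of Prdx2 for any array but siSpt6 replicate 2 (0.121). Txnrd3, a relative of Txnrd1 named after its value was seen, fell by 0.63, a call that ended when any array but siControl replicate 3 and siSpt6 replicate 1 was left out (highest limma adjusted p = 0.0845).

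Txnrd1, Gpx1 and Gpx4 contain selenocysteine, so 9 genes of selenoprotein synthesis were read as well, all of them tested. Of these 2 fell and 0 rose by limma at an adjusted p under 0.05 (3 lower and 1 higher at an unadjusted p under 0.05), and the median log2 difference was -0.23. Sephs2, which makes the selenium donor and is itself a selenoprotein, read 625, 661 and 543 in siControl and 323, 329 and 308 in siSpt6 (1.90-fold lower, limma adjusted p = 0.00456). Trnau1ap, a partner of the selenocysteine tRNA, fell by 0.51 on the log2 scale, a call that ended under both normalizations (limma adjusted p = 0.119 and 0.112) and whichever of the 6 arrays was left out (highest limma adjusted p = 0.130).

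Of 23 glutathione transferase genes, 17 were tested, of which 4 rose and 0 fell by limma at an adjusted p under 0.05 (5 higher and 1 lower at an unadjusted p under 0.05), with a median log2 difference of 0.11 as deposited and 0.18 after quantile normalization. Gstt3 rose 1.85-fold from 137 ± 7.57 to 253 ± 25.3 (intensity ± SD, n = 3 each; limma adjusted p = 0.00555), and Gstm1 rose 1.75-fold from 65.1 ± 5.38 to 115 ± 16.8 (limma adjusted p = 0.0140). Gsto2 was very dim, at 2.08 on average over 2 siControl arrays with a value and 4.97 over 3 siSpt6 arrays (limma adjusted p = 0.00795). Its log2 difference of 1.24 became 0.68 when a pseudocount of 2.66 was added, and it was not tested without siControl replicate 1 or 2. Gstm3, named after its value was seen, rose by 0.58 on the log2 scale, a call that ended when any array but siSpt6 replicate 2 was left out (highest limma adjusted p = 0.0730). Gstm genes are alike in sequence, and whether their probes tell them apart was not tested.

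**Figure D3:**
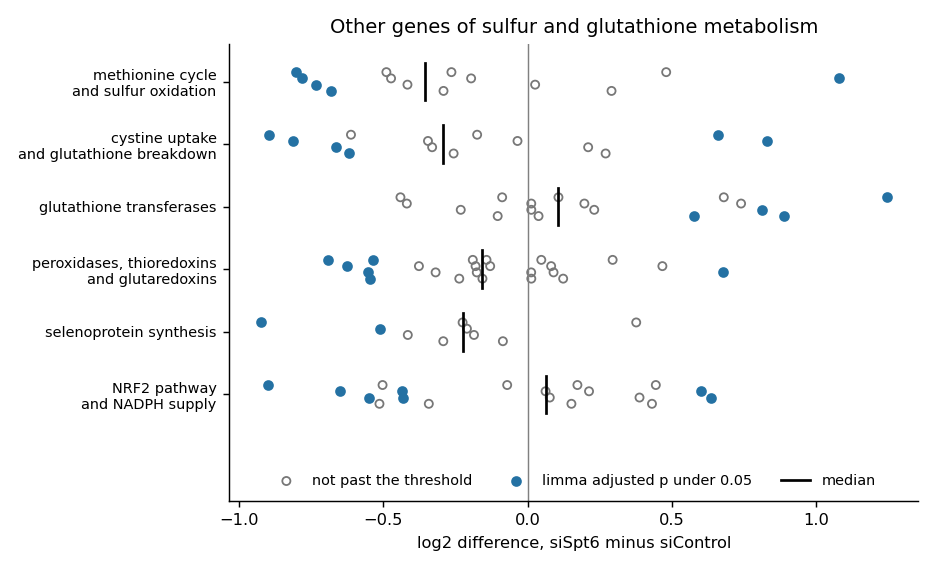
Log2 difference (siSpt6 minus siControl) of the 96 tested genes in 6 lists of sulfur and glutathione metabolism that exclude the members, with the median of each list as a line. Filled points passed a limma adjusted p of 0.05. The medians of the deposited values run from -0.35 in the methionine cycle to 0.11 in the glutathione transferases.

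Over the 6 lists together, 30 of 96 genes (31.3%) were called, 10 higher and 20 lower, beside 17.0% of all genes tested. The split moved with the scaling, to 13 higher and 12 lower after quantile normalization and 12 higher and 13 lower after cyclic loess. The count also fell to 13 without siControl replicate 1, 14 without siControl replicate 2, 17 without siControl replicate 3 or siSpt6 replicate 1, and 18 without siSpt6 replicate 2. The 12 genes that kept their call when any 1 array was left out and after both normalizations were Mtr, Csad, Slc3a2, Oplah, Lap3, Gstm1, Gstt3, Glrx, Glrx3, Sephs2, Pgd and Tkt. The share of all genes tested was not matched for brightness. With bright probes only, 38 of 72 list genes were called, beside 3974 of 10792 probes. The latter is a count by probe and not by gene, so these shares are not like for like. The lists were also chosen with earlier results of these data known, so nothing is read from their share.

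Genes whose values ran most like those of Cth, Chac1 and Gclc, the 3 members with the largest differences, were found by the root mean square distance between log2 values over the 6 arrays, each taken relative to the gene's own siControl mean. For Chac1 they were the amino acid transporter gene Slc7a3 (distance 0.15), the zinc finger gene Plagl1 (0.15) and Hamp2, a hepcidin gene (0.16), among 13919 genes compared. The same genes came nearest to Cth, at distances of 0.33, 0.27 and 0.38. The probe of Hamp2 was dim, at 13.7 to 17.2 in siControl. For Gclc they were Gtf2e1, a subunit of the general transcription factor TFIIE (0.04), Ubl3 (0.05) and Ino80b, a subunit of a chromatin remodeller (0.05). These distances rest mostly on the size of the group difference, which all such genes share.

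**Figure D4:**
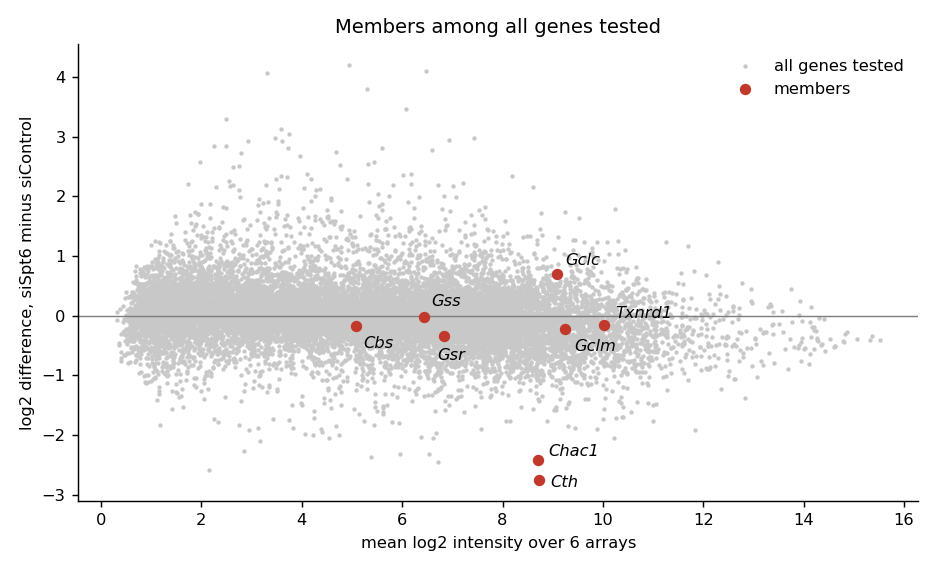
Log2 difference (siSpt6 minus siControl) against mean log2 intensity over the 6 arrays for all 15224 genes tested (grey), with the 8 measured members in red. Cth at -2.76 and Chac1 at -2.42 lie at the lower edge of the cloud, Gclc at 0.69 lies on its upper side and the other members lie near its middle.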

How the data were processed

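The values are the authors' deposited intensity table, linear in scale, with 6 columns for 6 arrays. Per the labels' protocols, RNA was amplified into amino allyl RNA, coupled to Cy5 and hybridised after the protocol of TORAY. How background was corrected and arrays were scaled is not stated. Array medians were close to 30.0 on every array. Blanks were taken as missing.

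Of 23473 probes 16631 had a gene symbol, updated with RefSeq names (GRCm38.p6). Values were log2-transformed without a pseudocount. Probes with a value on at least 2 of 3 arrays per group (21584) were fitted with limma 3.58.1 in R 4.3.3 (lmFit, eBayes, group only, two-sided) and adjusted by Benjamini-Hochberg over all probes. A call is an adjusted p under 0.05. A fold is the ratio of geometric means. The fit was tested on simulated data with known changes. It recovered 1 of 67 probes changed 1.5-fold, 24 of 67 changed 2-fold and 62 of 66 changed 4-fold. Far fewer probes were changed there than were called in the data, so these shares may not hold here. Small differences without a call may thus have been missed.

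Members and lists were chosen with earlier results of these data known. Named genes were the members, Slc7a11, Nfe2l2, Keap1, Atf4 and Supt6, up to 3 rises and 3 falls per list with the smallest p, and for 3 members the 3 genes most like each. Alternatives were quantile, cyclic loess and median scaling, bright or complete probes only, a pseudocount of 2.66, eBayes trend and robust, array weights, a replicate block, the mean of a gene's probes and each array left out. Promoter sequences are from RefSeq (GRCm38.p6).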

Additional observations from a re-analysis of the deposited data

How the results depend on the processing

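Leaving out 1 array at a time gave 2099 to 2522 changed probes (1047 to 1124 higher, 1052 to 1421 lower) in place of 3525 (1603 and 1922). It gave 13 to 22 called genes in the 6 lists (5 to 9 higher, 8 to 13 lower) in place of 30 (10 and 20), and 2 or 3 called members. Lower calls in the lists numbered 12 after quantile normalization and 13 after cyclic loess. Higher calls were 45.5% of changed probes as deposited, 57.3% after quantile normalization and 53.6% after cyclic loess. Members called numbered 4 with bright probes only and 3 under the other settings that kept all arrays. As the members were chosen with these values known, nothing is read from the counts of called members. Leaving out 1 array at a time moved the log2 difference of Slc7a11 between -0.27 and 0.086 and that of Keap1 between -0.037 and 0.16, across 0 in both cases; the cause was not tested. With the replicate number as a block 3594 probes, 3 members and 30 list genes were called, 26 of the latter also called without it. The calls of Dpep2 and Bach1 were among those that ended under the block (limma adjusted p = 0.0550 and 0.0632). Deviations of same-numbered arrays correlated by 0.35, 0.08 and 0.26 over 20336 probes, and those of differently numbered arrays by -0.29 to 0.02. Every array thus correlated best with its own number. The labels do not state that the numbers are pairs, so the main fit used the group only, and its p-values leave any pairing out. No signal over background was given, so dim probes such as Gpx1, Slc7a11, Gsto2, Dpep2 and Ggt7 have no known detection limit.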
